A study of Mus musculus with 4 samples.

Results

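The genes described here encode the enzymes that add methyl groups to lysine 4 of histone H3 (H3K4) and those that remove them. They are 10 genes of the 55573 in the count tables, found by matching each gene's Ensembl identifier to its symbol in GENCODE mouse M21. The list holds 6 methyltransferase genes (*Kmt2a*, *Kmt2b*, *Kmt2c*, *Kmt2d*, *Setd1a* and *Setd1b*) and 4 demethylase genes (*Kdm5a*, *Kdm5b*, *Kdm5c* and *Kdm1a*). All 10 members passed the filter on low counts and were tested.

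RNA was sequenced from tdTomato-positive cells, sorted by flow cytometry from the basal telencephalon of C57BL/6J mouse embryos at embryonic day 16, with the day of insemination counted as the first day. Embryos of both groups carried Hmx3-Cre, which is active in cells that express the homeobox gene *Hmx3*, and the tdTomato reporter, so the deletion is limited to cells with a history of Cre activity, which the labels call premature Hmx3-derived interneurons. *Dnmt1* was intact in the wild-type group (WT), while the knockout group (KO) carried *Dnmt1* loxP2 alleles whose exons 4 and 5 are removed by Cre. Each genotype had 2 libraries (WT 1 and WT 2, KO 1 and KO 2), from cells pooled over 12 WT and 6 KO embryos. The labels call them biological replicates and the methods of the study technical duplicates of pools, so the p-values below describe only how the libraries vary, and that may be less than embryos do. The comparison bears on whether loss of the DNA methyltransferase DNMT1 goes along with altered transcript levels of the enzymes that set or erase the permissive H3K4 mark.

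H3K4 methylation marks the regulatory regions of active genes. Trimethylation sits at promoters and monomethylation at enhancers. The methyltransferases are large proteins with a catalytic SET domain that work in complexes built on a shared core of WDR5, RBBP5, ASH2L and DPY30. KMT2A and KMT2B act with menin at promoters of developmental genes, KMT2C and KMT2D monomethylate enhancers, and SETD1A and SETD1B place most of the trimethylation at active promoters. The KDM5 proteins are Jumonji-type oxygenases that take trimethyl and dimethyl groups off H3K4. KDM1A (LSD1) is a flavin-dependent amine oxidase that removes dimethyl and monomethyl groups, mostly within the CoREST repressor complex. In developing neurons these enzymes take part in the switch from progenitor to neuronal gene programmes, and mutations in several of them cause intellectual disability in humans.

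Promoters of these genes are shown because CG dinucleotides are the sites that DNMT1 methylates, and the number of such sites differs between the members. Their methylation was not analysed here, and the number of sites is a description. RefSeq promoters of build GRCm38.p6 matched 7 of the 10 members (all but *Kmt2b*, *Setd1b* and *Kdm5a*). In the 250 bases before the RefSeq transcription start, *Kmt2c* had 48 CG dinucleotides, *Kmt2a* 29, *Kmt2d* 26, *Setd1a* 25, *Kdm1a* 21, *Kdm5b* 13 and *Kdm5c* 10. The median over 32851 promoters was 6. Of all promoters, 0.186% had as many as *Kmt2c*, 9.59% as many as *Kmt2d*, 16.3% as many as *Kdm1a* and 37.8% as many as *Kdm5c*. The sequences of *Kmt2d* (chr15:98871206-98871455, minus strand), its paralogue *Kmt2c* (chr5:25498784-25499033, minus strand) and the demethylase gene *Kdm1a* (chr4:136602724-136602973, minus strand) are given from 5′ to 3′ with each CG in capitals. The RefSeq start can differ from the GENCODE gene start used for the positions below. The window of *Setd1a* (chr7:127777139-127777388) lies wholly after its GENCODE start, and most of that of *Kdm5c* (chrX:152232977-152233226) does too.
Kmt2d: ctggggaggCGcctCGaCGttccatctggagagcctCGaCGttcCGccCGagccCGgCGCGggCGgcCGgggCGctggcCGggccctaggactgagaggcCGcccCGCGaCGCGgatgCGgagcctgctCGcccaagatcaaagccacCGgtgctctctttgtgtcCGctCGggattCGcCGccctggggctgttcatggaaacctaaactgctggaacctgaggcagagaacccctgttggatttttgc
Kmt2c: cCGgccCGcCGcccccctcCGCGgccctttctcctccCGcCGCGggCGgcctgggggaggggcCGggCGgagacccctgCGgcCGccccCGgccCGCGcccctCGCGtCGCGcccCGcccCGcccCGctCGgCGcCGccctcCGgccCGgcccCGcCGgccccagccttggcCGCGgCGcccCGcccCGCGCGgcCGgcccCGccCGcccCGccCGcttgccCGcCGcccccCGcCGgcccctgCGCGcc
Kdm1a: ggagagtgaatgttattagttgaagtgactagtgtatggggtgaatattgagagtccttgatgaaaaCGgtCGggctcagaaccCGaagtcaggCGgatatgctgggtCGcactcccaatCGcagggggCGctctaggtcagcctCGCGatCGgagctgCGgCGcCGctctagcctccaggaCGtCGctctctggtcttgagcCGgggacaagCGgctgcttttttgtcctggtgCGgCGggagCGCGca

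Total counts were 8075102 to 9995968 per library. Counts of the replicates differed beyond counting error, with a chi-square of 57.2 in WT and 4.28 in KO for each degree of freedom, over genes with at least 10 counts in the pair, so no library was a copy of another. WT 1 stood apart, with 8.66% of its counts on mitochondrial rRNA against 1.51% to 2.32% in the other libraries. *Dnmt1* itself was at 385 and 446 CPM (counts per 1000000, scaled by TMM factors) in WT and at 283 and 281 CPM in KO. Its log2 fold change of -0.56 (SE 0.14) had an edgeR adjusted p of 0.0511. Its counts cover the whole gene, exons outside the deleted part included. *Hmx3* had 604 to 919 counts per library. Transcripts of other cell types were present too and several differed between genotypes. Of 10 astrocyte markers, 10 passed the test in edgeR (adjusted p under 0.05) with higher levels in KO, and their summed level was 262 to 277 CPM in WT and 3668 to 3865 CPM in KO. The corresponding numbers were 8 of 9 oligodendrocyte markers (135 to 161 CPM against 586 to 608 CPM) and 7 of 8 mural cell markers (61.3 to 66.7 CPM against 407 to 413 CPM). *Gfap*, *Opalin* and *Acta2* of these lists had 0 counts in both WT libraries. Of 6 oligodendrocyte precursor markers 1 was higher (1488 to 1558 CPM against 1888 to 1999 CPM), as were 2 of 7 tested microglial (32.8 to 37.8 CPM against 68.0 to 74.7 CPM) and 1 of 7 tested endothelial markers (18.4 to 20.0 CPM against 142 CPM in both KO libraries). At an unadjusted p under 0.05, 5 of the 6 precursor and 6 of the 7 microglial markers were higher in KO. DESeq2 called 2 of the precursor and 1 of the microglial markers. The endothelial sum rested on the called gene *Slco1c1* (log2 fold change 6.86), while the median log2 fold change of that list was 0.61 and 2 of its tested genes lay below 0. Of 10 general neuronal markers, 3 were lower in KO (6196 to 6742 CPM against 4541 to 4597 CPM), while 9 had negative fold changes, 8 an unadjusted p under 0.05, and DESeq2 called 7. Also lower were 2 of 6 glutamatergic (425 to 447 CPM against 231 to 257 CPM), 1 of 4 tested choroid plexus (54.6 to 70.7 CPM against 8.56 to 9.36 CPM) and 1 of 5 tested erythroid markers (30.8 to 44.7 CPM against 18.9 to 19.2 CPM). None of 12 markers of GABAergic preoptic neurons (1677 to 1850 CPM against 1447 to 1572 CPM) or of 9 progenitor markers (1085 to 1087 CPM against 1126 to 1165 CPM) passed by edgeR, while 3 in each list had an unadjusted p under 0.05 and none passed with DESeq2. By sign, 11 of the 12 GABAergic preoptic markers lay below 0, against 4 of the 9 progenitor markers. In bulk RNA, fewer cells of a type and less RNA per cell cannot be told apart. What part these markers' cells have in the values below was not tested.

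The methyltransferase genes were higher and the demethylase genes were lower in KO, in every member by the sign of the fold change, but only 2 members differed past the threshold. *Kmt2d* rose by a factor of 1.94 and *Setd1b* by a factor of 1.77, with adjusted p-values from edgeR under 0.05. The other 4 methyltransferase genes had fold changes of 1.24 to 1.36, and the 4 demethylase genes of 0.852 to 0.889, none of which passed. Thus 2 of 10 members were called, both higher in KO. Over all 16832 genes tested, 7.9% were called, 7.33% higher and 0.57% lower. Both KO libraries lay above both WT libraries in 6 of 6 methyltransferase genes, an order found in 28.3% of all genes tested, and below both in 3 of 4 demethylase genes, an order found in 25.2%. The median log2 fold change was 0.40 over the methyltransferase genes, -0.22 over the demethylase genes and -0.03 over all genes tested. Since the members were chosen with earlier results of these data known, these counts describe the list and are no test of it.

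**Figure D1:**
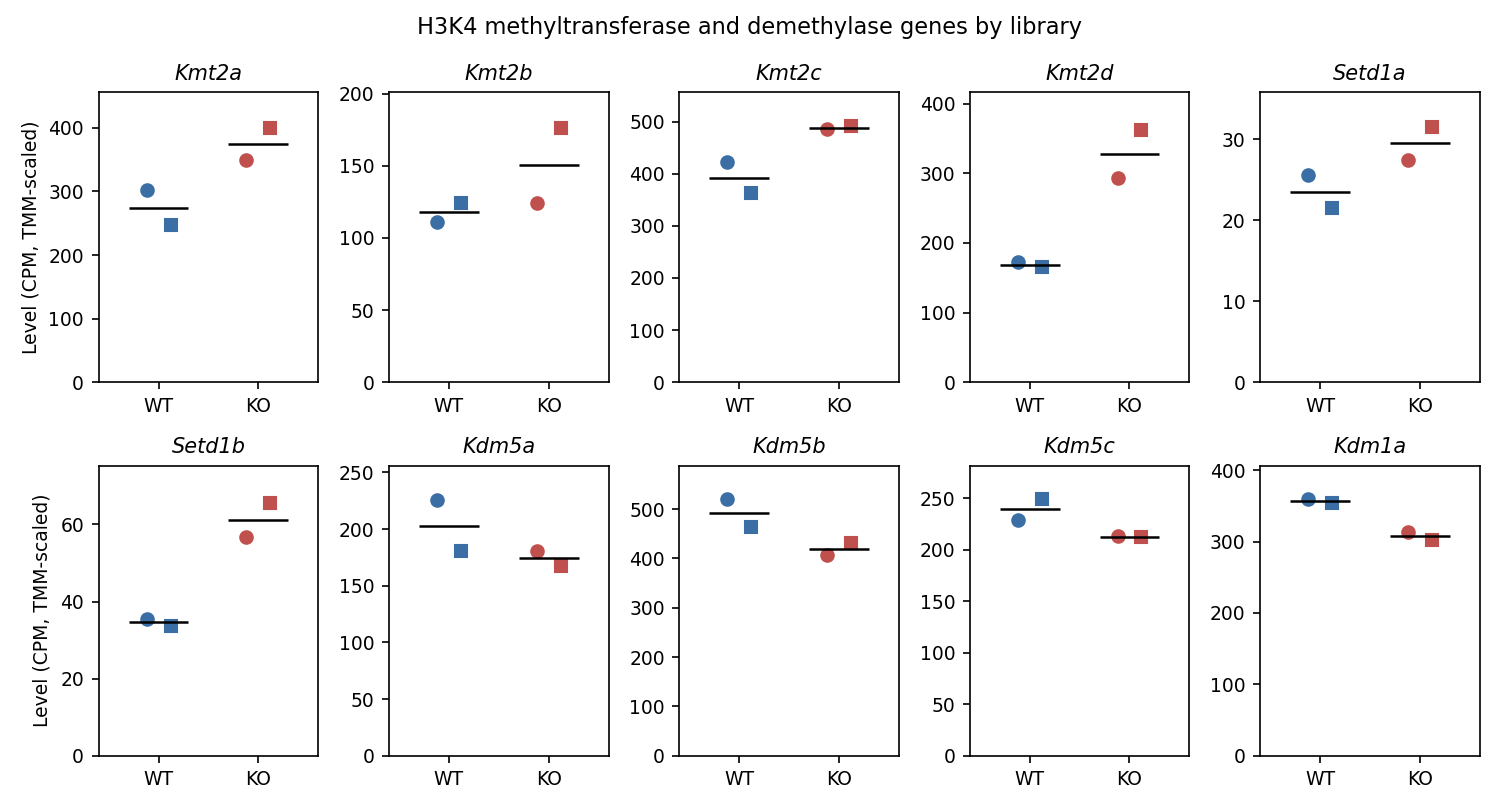
Level of each of the 10 genes in CPM (counts per 1000000, TMM-scaled, linear axes from 0) in the 2 WT (blue) and 2 KO (red) libraries, with replicate 1 as a circle, replicate 2 as a square and the mean of each genotype as a line. Both KO libraries lie above both WT libraries in all 6 methyltransferase genes, and below both in *Kdm5b*, *Kdm5c* and *Kdm1a*, while the genotypes overlap in *Kdm5a*.

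*Kmt2d*, the methyltransferase gene of the enhancer pair that is mutated in Kabuki syndrome (chr15:98831669-98871204 of GRCm38), showed the clearest difference. It was at 173 CPM in WT 1, 165 CPM in WT 2, 293 CPM in KO 1 and 362 CPM in KO 2. The WT libraries were nearly equal, and the lower KO library was still well above both. WT averaged 169 ± 5.21 CPM and KO 328 ± 48.9 CPM (SD, n = 2 each), a log2 fold change of 0.96 (SE 0.15, edgeR adjusted p = 0.00661). The 95% interval of the fold change ran from 1.52 to 2.48.

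*Kmt2c*, the paralogue of *Kmt2d* (chr5:25271798-25498783), was the most abundant methyltransferase transcript by CPM, and in KO the most abundant member, with 422 and 363 CPM in WT and 486 and 491 CPM in KO. The KO libraries were nearly equal and lay above both WT libraries. Its log2 fold change of 0.32 (SE 0.14) did not pass (edgeR adjusted p = 0.234), and the 95% interval of the fold change was 0.992 to 1.56. The count ratio of *Kmt2d* to *Kmt2c* within a library needs no scaling between libraries. This ratio was 0.409 and 0.455 in WT and 0.603 and 0.738 in KO, so the enhancer pair was made up of more *Kmt2d* reads in both KO libraries. The ratio was not tested.

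*Setd1b*, which encodes a catalytic subunit of the SETD1 complexes of active promoters (chr5:123142193-123168629), was the other called member. It was at 35.5 and 33.7 CPM in WT and at 56.8 and 65.6 CPM in KO, and the genotypes did not overlap. WT averaged 34.6 ± 1.27 CPM and KO 61.2 ± 6.23 CPM (SD, n = 2 each), with a log2 fold change of 0.82 (SE 0.16, edgeR adjusted p = 0.0156) and a 95% interval of the fold change from 1.38 to 2.28.

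*Setd1a*, which encodes the alternative catalytic subunit (chr7:127776670-127800122), had 25.6 and 21.5 CPM in WT and 27.5 and 31.5 CPM in KO. KO 1 exceeded WT 1 by little, and the log2 fold change of 0.33 (SE 0.19) did not pass (edgeR adjusted p = 0.351, 95% interval of the fold change 0.925 to 1.71). The same-strand gene *Gm49388* covers 51.9% of the exonic bases of *Setd1a* and had 0 counts in all 4 libraries. No read on the shared bases was thus counted for *Gm49388*. Whether such reads were counted for *Setd1a* or left out is not given in the sources used here. The level of *Setd1a* is therefore uncertain and may be too low, also against *Setd1b*. The count ratio of *Setd1b* to *Setd1a* was 1.39 and 1.57 in WT and 2.07 and 2.08 in KO, again without overlap, and was not tested.

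In the menin-bound pair neither gene was called. *Kmt2a* (chr9:44803355-44881296), the gene known as MLL from leukaemia translocations, was at 303 and 247 CPM in WT and at 349 and 399.9 CPM in KO. Its log2 fold change was 0.45 (SE 0.16), with an unadjusted p of 0.0214 that became 0.139 after adjustment by edgeR over all genes, and a 95% interval of the fold change from 1.06 to 1.75. *Kmt2b* (chr7:30568858-30588726) was at 111 and 124 CPM in WT and at 125 and 176 CPM in KO. KO 1 was thus hardly above WT 2, while KO 2 was far above the other libraries. The log2 fold change of *Kmt2b* was 0.35 (SE 0.19, edgeR adjusted p = 0.312, 95% interval of the fold change 0.944 to 1.73), and it was 0.08 without KO 2 and 0.59 without KO 1. The count ratio of *Kmt2a* to *Kmt2b* was 2.72 and 1.98 in WT and 2.804 and 2.27 in KO, where the genotypes overlapped.

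**Figure D2:**
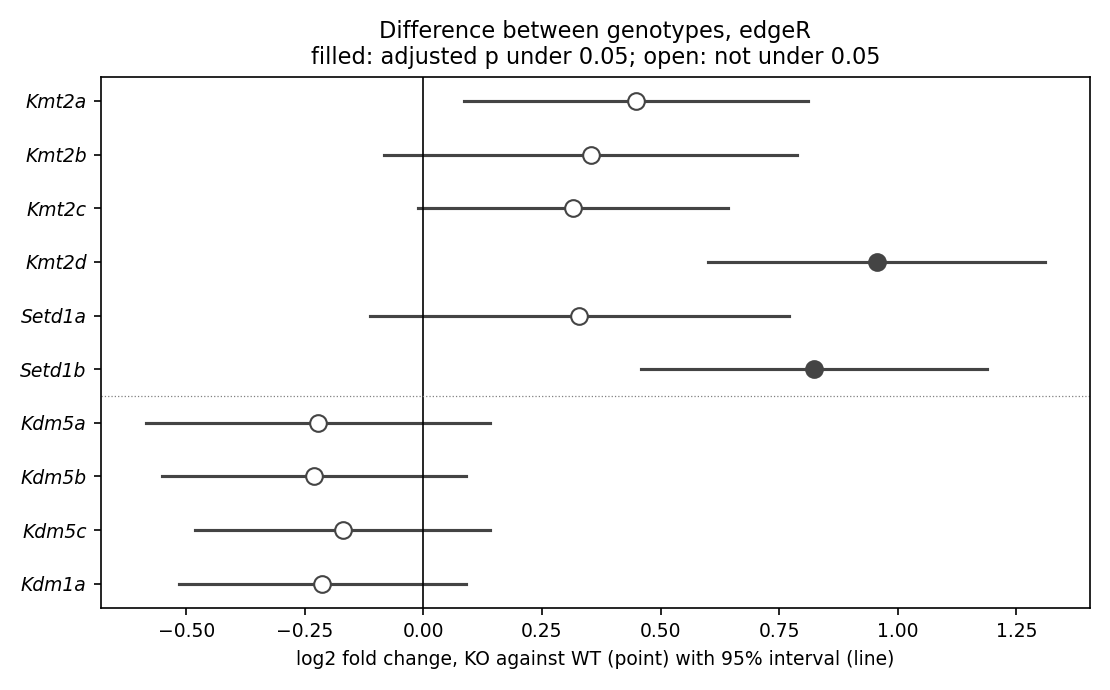
Log2 fold change of KO against WT for the 6 methyltransferase genes (above the dotted line) and the 4 demethylase genes (below it), as fitted by edgeR, with 95% intervals as lines. Filled points, *Kmt2d* at 0.96 and *Setd1b* at 0.82, have an adjusted p under 0.05, and the intervals of all 4 demethylase genes cross 0.

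The demethylase genes lay within a narrow range of fold changes, and none passed the threshold by edgeR or DESeq2 or had an unadjusted p under 0.05. *Kdm1a* (chr4:136550540-136602723) was at 360.2 and 354 CPM in WT and at 314 and 302 CPM in KO. Its genotypes did not overlap, averaging 357 ± 4.34 CPM for WT and 308 ± 8.33 CPM for KO (SD, n = 2 each). The log2 fold change was -0.21 (SE 0.13, edgeR adjusted p = 0.376), and the 95% interval of the fold change was 0.700 to 1.06.

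*Kdm5b* (chr1:134560171-134635285), the most abundant member by CPM in WT, was at 519.6 and 464 CPM in WT and at 407 and 431 CPM in KO. Both KO libraries were below both WT libraries, with a log2 fold change of -0.23 (SE 0.14, edgeR adjusted p = 0.367, 95% interval of the fold change 0.683 to 1.06). *Kdm5a* (chr6:120364124-120444574) was at 226 and 180.5 CPM in WT and at 181 and 167 CPM in KO. WT 2 lay just below KO 1, so the genotypes overlapped, and the log2 fold change was -0.22 (SE 0.16, edgeR adjusted p = 0.443).

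*Kdm5c* (chrX:152233020-152274535) lies on the X chromosome and is known to escape X inactivation, so that its level can differ between the sexes. It was at 229 and 249.7 CPM in WT and at 214 and 212 CPM in KO (log2 fold change -0.17, SE 0.14, edgeR adjusted p = 0.496, 95% interval of the fold change 0.716 to 1.102). Its Y-linked homologue *Kdm5d* was at 51.1 and 45.9 CPM in WT and at 60.4 and 64.9 CPM in KO (log2 fold change 0.37, edgeR adjusted p = 0.196). *Xist*, which is transcribed from the inactive X chromosome, was at 599 CPM in WT 1, 265 CPM in WT 2, 200.1 CPM in KO 1 and 197 CPM in KO 2. Its log2 fold change was -1.12 (edgeR adjusted p = 0.0811) and -0.42 without WT 1, and it passed with each library left out. The Y-linked genes were likewise higher in WT 1 than in WT 2, with *Ddx3y* at 34.4 against 23.2 CPM, *Eif2s3y* at 57.0 against 37.5 CPM and *Uty* at 27.1 against 11.5 CPM. In KO 1 and KO 2 they were at 35.3 and 32.3 CPM, 63.0 and 53.4 CPM, and 27.5 and 20.8 CPM, which overlapped with WT. Under the length and GC correction described below, these 3 genes and *Kdm5d* were called higher in KO (log2 fold changes 0.56 to 0.97) and *Xist* lower (-0.78), and *Kdm5c* itself was at -0.16. *Xist* and the Y-linked genes thus moved the same way between the WT libraries. Between the genotypes they lay opposite ways, with log2 fold changes of 0.23 to 0.37 for the Y-linked genes before the correction. The part of these differences in the *Kdm5c* values was not tested.

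Per length of the transcript, *Kdm1a*, *Kdm5c* and *Kdm5b* stood above the 6 methyltransferase genes in both genotypes, and *Kdm5a* stood among them. RPKM values (CPM per kilobase of all annotated exonic bases of the gene) allow levels to be set side by side between genes. In WT the order was *Kdm1a* (69.0 ± 0.837 RPKM), *Kdm5c* (33.7 ± 2.05 RPKM), *Kdm5b* (29.7 ± 2.36 RPKM), *Kmt2c* (19.3 ± 2.03 RPKM), *Kmt2a* (16.5 ± 2.37 RPKM), *Kdm5a* (14.3 ± 2.26 RPKM), *Kmt2b* (12.3 ± 0.964 RPKM), *Kmt2d* (8.48 ± 0.262 RPKM), *Setd1a* (3.46 ± 0.428 RPKM) and *Setd1b* (2.87 ± 0.105 RPKM; SD, n = 2 each). The libraries of neighbours overlapped from *Kmt2c* through *Kmt2a* and *Kdm5a* to *Kmt2b*, whereas the other neighbours in this order did not overlap. In KO, *Kmt2d* stood at 16.4 ± 2.45 RPKM, above *Kmt2b* at 15.7 ± 3.82 RPKM and *Kdm5a* at 12.3 ± 0.676 RPKM. *Setd1b* at 5.07 ± 0.516 RPKM was above *Setd1a* at 4.34 ± 0.42 RPKM (SD, n = 2 each). The level of *Setd1a* is uncertain and may be too low, so the order of *Setd1a* and *Setd1b* is not settled. *Kmt2d* and *Kmt2b* overlapped in KO, so their order there is not settled by these libraries, while *Kmt2d* and *Kdm5a* did not overlap in either genotype and changed places.

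The summed level of the 6 methyltransferase genes was 65.9 RPKM in WT 1, 59.9 RPKM in WT 2, 81.3 RPKM in KO 1 and 94.8 RPKM in KO 2. That of the 4 demethylase genes was 149 and 144 RPKM in WT and 128 and 126 RPKM in KO. The ratio of the methyltransferase to the demethylase sum was accordingly 0.442 and 0.415 in WT and 0.635 and 0.752 in KO. Neither sum overlapped between genotypes, and in the methyltransferase sum KO 2 stood further from WT than KO 1. The sums and their ratio were not tested and do not carry the length and GC correction described below. *Kdm1a* had the largest share of the demethylase sum in all 4 libraries, and the methyltransferase sum was spread over *Kmt2c*, *Kmt2a*, *Kmt2b* and *Kmt2d*.

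**Figure D3:**
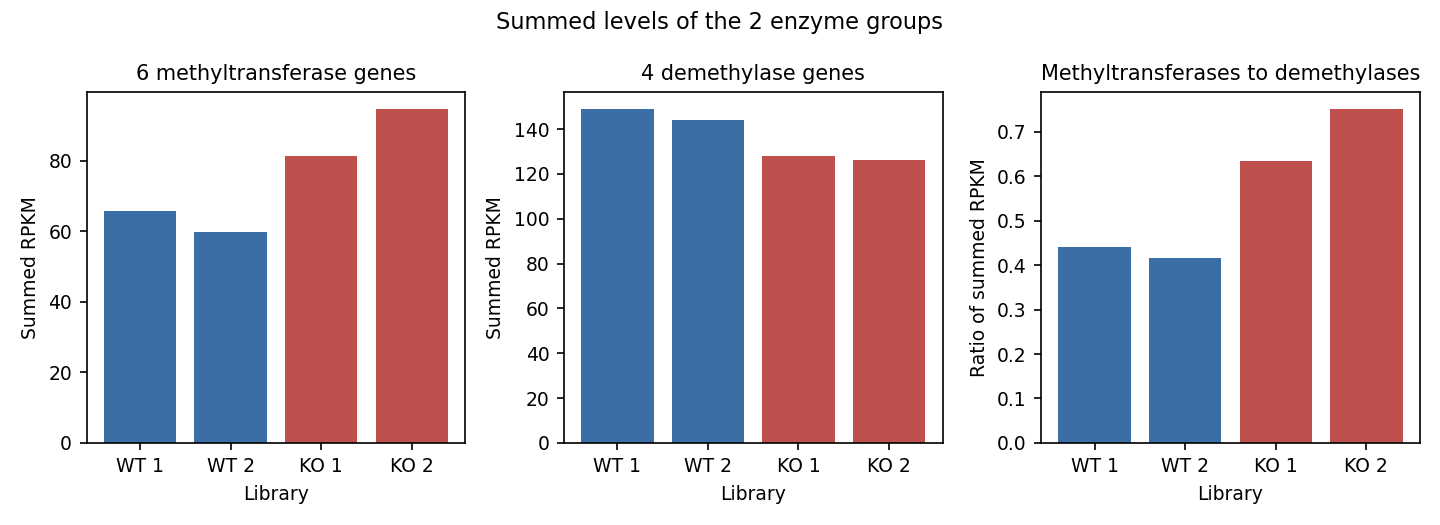
Summed RPKM (CPM per kilobase of exonic bases) of the 6 methyltransferase genes, of the 4 demethylase genes, and the ratio of these sums, in each of the 4 libraries (WT blue, KO red; bars start at 0, 1 bar per library, no error bars). The ratio is 0.442 and 0.415 in the WT libraries and 0.635 and 0.752 in the KO libraries.

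The called members are long and rich in G and C, while some that were not called are long or rich in G and C. *Kmt2d* has 19931 exonic bases and a GC content of 58.4% in its longest transcript, and *Setd1b* has 12068 exonic bases and a GC content of 59.0%. *Kmt2b*, not called, had the highest GC content of the members (59.1%) with 9596 exonic bases. *Kmt2c*, not called, was the longest with 20291, at a GC content of 47.6%. Among all genes tested, 115 had both at least 10000 exonic bases and a GC content of at least 55%, limits that were set after the values were seen. Of these, 18.3% were called higher in KO and their median log2 fold change was 0.24, both above the values for all genes. Among the members, only the called genes *Kmt2d* and *Setd1b* met both limits. When each library was corrected for its trends with length and GC content, the log2 fold change was 0.98 for *Kmt2d* and 0.88 for *Setd1b*. Under the correction the median moved from 0.24 to 0.29 for the 115 genes, from 0.07 to 0.03 for all 3425 genes with a GC content of at least 55%, and from -0.06 to 0.09 for all 1456 genes with at least 10000 exonic bases. *Kmt2a* (0.49, edgeR adjusted p = 0.0198) and *Kmt2c* (0.41, edgeR adjusted p = 0.0122) then passed as well, so that 4 of 10 members were called against 16.4% of all genes, of which 73.6% in place of 92.8% were higher in KO. *Kdm5a*, with a GC content of 43.3% the lowest of the members, moved to -0.01 under this correction, and the other demethylase genes to between -0.24 and -0.13.

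The calls were not kept without KO 2, although both fold changes were still above 0 there. Without KO 2, 0 of 10 members passed by edgeR (against 5.37% of all genes), and the adjusted p was 0.0888 for *Kmt2d* and 0.233 for *Setd1b*, with log2 fold changes of 0.80 and 0.72. Without KO 1 both remained called (2 of 10 members against 6% of all genes), with log2 fold changes of 1.11 and 0.94. Without WT 1, the library rich in mitochondrial rRNA, they were 0.98 and 0.85, and *Kmt2a* and *Kmt2c* passed as well, 4 of 10 members against 21.3% of all genes. Without WT 2, *Kmt2b* was called higher and *Kdm5a* and *Kdm5b* were called lower beside them, 5 of 10 members against 23.3% of all genes, of which 2180 were lower and 2029 higher. Among members that were not called, the log2 fold change ranged over the left-out libraries from 0.30 to 0.60 for *Kmt2a*, from 0.20 to 0.42 for *Kmt2c*, from 0.20 to 0.45 for *Setd1a* and from -0.39 to -0.06 for *Kdm5a*. In these fits the lone library of a genotype is assumed to vary like the pair of the other genotype, and the KO pair was the tighter one.

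Few genes for the partners of these enzymes passed the test. Of 55 genes for shared core subunits, complex-specific subunits, other H3K4 methyltransferases and demethylases, the KDM1A complex and H3K4 readers, 51 were tested and 1 passed, the reader gene *Pygo1*, which was lower in KO. This is 1.96% of the tested genes, against 7.9% of all genes called and 0.57% called lower. With the correction for length and GC content 10 of the 51 were called, 19.6% against 16.4% of all genes. At an unadjusted p under 0.05 there were 8 of the 51, against 22.7% of all genes, and DESeq2 called 2 of the 52 it tested (*Pygo1* and *Hdac2*), against 7.4% of all genes. The median log2 fold change over the 51 genes was -0.12, with 19 genes above 0 and 32 below. By role, 4 of 5 other methyltransferases lay above 0, and 3 of 4 core and 9 of 11 complex-specific subunits lay below. Of all genes tested, 47.6% lay above 0 and 52.4% below. *Pagr1a*, which shares 98.7% of its exonic bases with the same-strand gene *Gm42742*, and *Gfi1b* had 0 counts in all libraries, and *Smyd1* and *Gfi1* did not pass the filter.

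Of the shared core, all 4 genes were tested and none passed by edgeR or DESeq2 or at an unadjusted p under 0.05, with log2 fold changes from -0.25 to 0.03. *Ash2l*, a core subunit that stimulates the catalytic site, had the smallest p among them, with 181 and 183 CPM in WT and 164 and 142 CPM in KO (log2 fold change -0.25, edgeR adjusted p = 0.338). Among 11 tested complex-specific subunits none passed by edgeR or DESeq2, and 2 had an unadjusted p under 0.05, both lower. *Psip1*, the chromatin tether of menin and KMT2A, had the smallest p, at 345 CPM in WT 1, 229 CPM in WT 2, 210.4 CPM in KO 1 and 176 CPM in KO 2. Its WT libraries differed by more than WT 2 and the KO libraries did, and its log2 fold change of -0.57 (SE 0.21) did not pass (edgeR adjusted p = 0.153). It was -0.25 without WT 1 and -0.85 without WT 2. *Psip1* was called lower by edgeR with the correction for length and GC content (-0.38, adjusted p = 0.0328) and without a filter on low counts (adjusted p = 0.00952). The same held with the replicate block (-0.55, adjusted p = 0.0173) and with block and correction together (adjusted p = 0.0109). *Snapc3* on the opposite strand shares 9.50% of the exonic bases of *Psip1*. *Kdm6a*, an H3K27 demethylase within the KMT2C and KMT2D complexes, was at 96.5 and 77.4 CPM in WT and at 73.6 and 71.5 CPM in KO (log2 fold change -0.26, edgeR adjusted p = 0.379). The value was -0.10 without WT 1, -0.42 without WT 2 (adjusted p = 0.0260) and -0.03 with the correction for length and GC content.

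Among the other methyltransferases, *Setd7*, which monomethylates H3K4 and non-histone proteins, had the smallest p. It was at 45.6 and 46.1 CPM in WT and at 63.0 and 59.9 CPM in KO, without overlap, and its log2 fold change of 0.42 (SE 0.15) did not pass (edgeR adjusted p = 0.133). *Setd7* passed with the correction for length and GC content (0.52, edgeR adjusted p = 0.0120). With correction and replicate block together it also passed (edgeR adjusted p = 0.00527). None of the 5 tested genes of this list passed by edgeR or DESeq2, and 1 had an unadjusted p under 0.05. Of the other demethylases, *Kdm1b*, the paralogue of *Kdm1a*, was at 52.9 and 49.0 CPM in WT and at 44.6 and 40.5 CPM in KO. Its log2 fold change of -0.26 (SE 0.15, edgeR adjusted p = 0.362) was close to that of *Kdm1a*. With the correction for length and GC content it was -0.14, against -0.24 for *Kdm1a*. *Dek* on the opposite strand shares 9.19% of the exonic bases of *Kdm1b*. *Kdm5d*, the other gene of this list, lay the other way, without overlap of the genotypes and with the smaller unadjusted p (log2 fold change 0.37, SE 0.15, edgeR adjusted p = 0.196).

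In the KDM1A complex, none of 12 tested genes passed by edgeR, while 2 had an unadjusted p under 0.05. *Hdac2*, a deacetylase that works beside KDM1A in CoREST, was at 354 and 313 CPM in WT and at 245 and 219 CPM in KO. Its log2 fold change was -0.52 (SE 0.14), and the adjusted p was 0.0707 by edgeR and 0.0134 by DESeq2. By edgeR it passed without a filter (adjusted p = 0.0206), with the replicate block (0.0171), with the length and GC correction (0.0420) and with both (0.0244). It did not pass with library size only (0.177) or with at least 10 counts in every library (0.0970). *Hmg20b*, a CoREST subunit and the other gene with an unadjusted p under 0.05, lay the other way at 9.43 and 14.1 CPM in WT and 19.4 and 20.0 CPM in KO (log2 fold change 0.74, SE 0.26, edgeR adjusted p = 0.139). *Hdac1*, the alternative deacetylase, was at 18.2 and 21.1 CPM in WT and at 17.5 and 18.6 CPM in KO, where the genotypes overlapped (log2 fold change -0.12, edgeR adjusted p = 0.768). The lists held 17 reader genes, whose products bind methylated H3K4 or sit in complexes that do. Of these, 2 had an unadjusted p under 0.05 by edgeR, both lower in KO. *Pygo1*, a Wnt pathway cofactor with a finger that binds methylated H3K4, fell from 126 and 111 CPM in WT to 78.1 and 75.1 CPM in KO (log2 fold change -0.63, SE 0.15, edgeR adjusted p = 0.0379). Its call was lost without KO 1 (adjusted p = 0.296) and without KO 2 (adjusted p = 0.440), although the log2 fold change stayed at -0.65 and -0.60. It was also lost with library size only (adjusted p = 0.0930) and with at least 10 counts in every library (adjusted p = 0.0504).

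**Figure D4:**
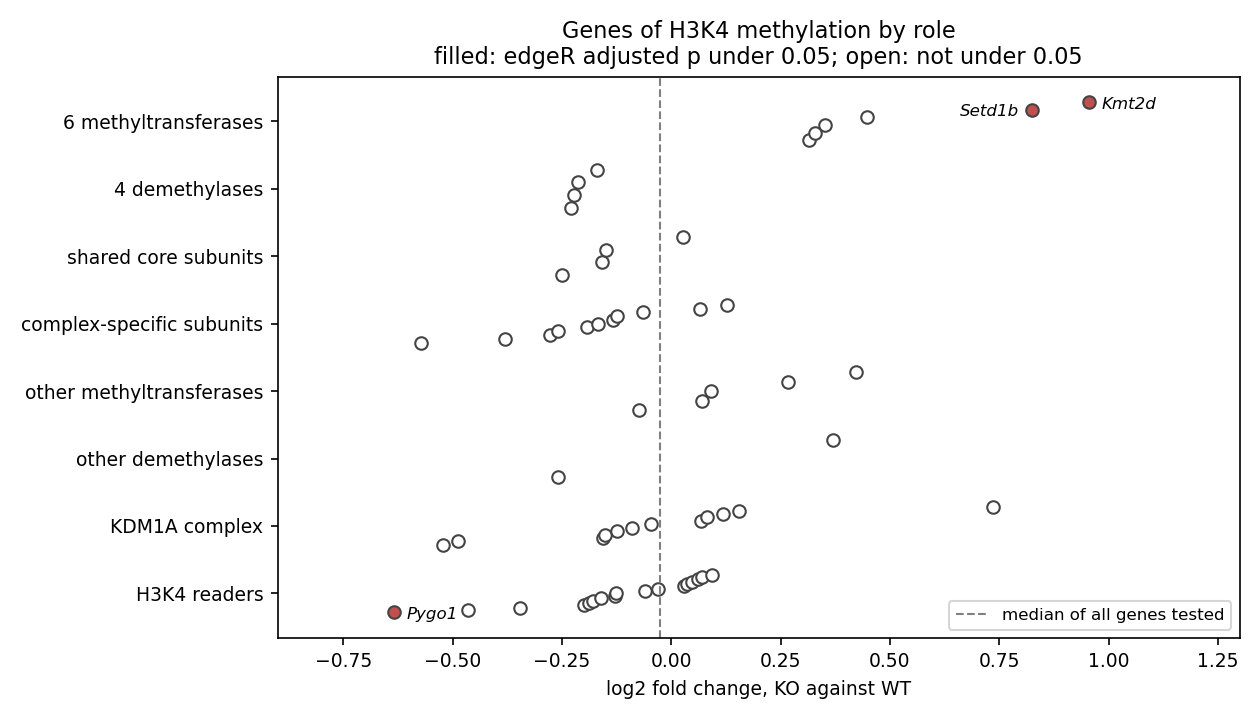
Log2 fold change of KO against WT for the 10 members and for the 51 tested genes of 6 related lists, 1 point per gene, grouped by role, with the median of all genes tested (-0.03) as a dashed line. Filled points have an edgeR adjusted p under 0.05. These are *Kmt2d* and *Setd1b* on the higher side and *Pygo1* on the lower side.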

How the data were processed

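Raw read counts per Ensembl gene, 1 list per library, were deposited by the authors without normalization. The submitters' processing notes name CASAVA 1.8.2, STAR 2.5.2a, featureCounts 1.5.0-p1 and the builds mm10 and GRCm38. The annotation release, the strand setting and the treatment of reads shared by genes are not given in the sources used here. Of 55573 identifiers, 55394 matched GENCODE M21 (GRCm38), which gave symbols, positions, exonic lengths and the GC content of the longest transcript.

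Counts passed edgeR's expression filter (16832 genes) and were compared between KO and WT with TMM factors and the quasi-likelihood test of edgeR 4.0.16 (run in R 4.3.3 beside limma 3.58.1), with genotype as the only term and Benjamini-Hochberg adjustment over all genes tested. Genes with an adjusted p under 0.05 were called. SEs and 95% intervals were derived from the test statistic. CPM used TMM-scaled library sizes, at which 3 counts correspond to 0.294 to 0.372 CPM (counting error only). The procedures were tested on simulated counts.

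Members and lists were chosen with earlier results of these data known. Named were all members, *Dnmt1*, in each related list the called genes or else the gene with the smallest p, and *Kdm1b*, *Kdm5d*, *Kdm6a*, *Hdac1* and *Hdac2*. Marker lists were given as counts and sums, and *Xist* and Y-linked genes as a check. *Slco1c1* and *Hmg20b* were named after their values were seen. Alternatives were DESeq2 1.42.0, its size factors, library size only, testing without a filter, a minimum of 10 counts in every library, omission of mitochondrial and rRNA genes, the replicate number as a block, a spline correction of each library for gene length and GC content, both together, and each library left out.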

Additional observations from a re-analysis of the deposited data

How the results depend on the processing

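Over 13 alternatives, no member changed the sign of its fold change. Of the values for the members, 117 kept their side of the threshold, 11 passed it newly and 2 no longer passed. The log2 fold change of *Kmt2d* ranged from 0.80 to 1.11 and that of *Setd1b* from 0.72 to 0.94. With library size only, the median shift over all genes was 0.11 on the log2 scale. *Kmt2a* passed too, so that 3 of 10 members were called against 10.6% of all genes. With the length and GC correction 4 of 10 members were called, against 16.4% of all genes. With the correction and the replicate block 5 of 10 were called, against 19.35% of all genes. The replicate numbers have no source beyond the labels, and same-numbered libraries deviated together with a correlation of 0.137 across genes. With the replicate block 2 of 10 members and 4 of 51 cofactor and reader genes were called, against 2244 genes in all (13.3%). Calls over all genes were 2363 without a filter, 883 with at least 10 counts in every library, 2766 with the correction, 3257 with the correction and the replicate block, and 951 to 4209 with a library left out. For cofactors and readers they were 2 with DESeq2, 0 with library size only, 4 without a filter, 0 with at least 10 counts in every library, 10 with the correction, 10 with the correction and the replicate block, and 0 to 8 with a library left out (0 without KO 1 or without KO 2). *Dnmt1*, at an adjusted p just above the threshold, passed it at log2 fold changes of -0.58 with DESeq2, -0.57 with its size factors, -0.55 without a filter, -0.56 without mitochondrial and rRNA genes, -0.56 with the replicate block, -0.55 with the correction and -0.55 with both, and ranged from -0.67 to -0.46 with a library left out. The cause of these moves was not tested. Members had at least 206 counts in every library.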
